A study of Mus musculus with 4 samples.

Results

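B cells were described in single-cell RNA sequencing of MC38b tumours grown in mice. A cell barcode was taken as a B cell when it held at least 3 UMIs (unique molecular identifiers, each counting 1 captured RNA molecule) of Cd79a, Cd79b and Ms4a1 together. It also had to hold no UMI of Cd3d, Cd3e, Cd3g or Ncr1, at most 2 UMIs of the C1q genes, at most 2 of Lyz2 and at most 1 of Siglech. The members were thus chosen by the measured UMIs of these genes, which are given only as a description. The rule gave 474 B cells among 32779 barcodes with at least 1000 UMIs, at least 500 genes and a mitochondrial share under 10%, out of 37588 barcodes deposited.

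MC38 is a colon carcinoma line of mice. Tumours were taken 24 hours after dose 2 of saline (labelled PBS), of anti-mouse PD-1 (labelled antiPD1), or of anti-mouse PD-1 with anti-mouse TL1A (labelled antiPD1TL1A, the combination). The 4 libraries analysed were 2 PBS libraries, 1 antiPD1 library and 1 antiPD1TL1A library, with 157 B cells in PBS 1, 83 in PBS 2, 144 in antiPD1 and 90 in antiPD1TL1A. The protocol gives 2 biological replicates for saline and 4 for the treated group, processed one by one and pooled in equal cell numbers before the sort, so a library can be a pool of animals. The sorted fractions (CD45+CD3+, CD45+CD3- and CD45-CD3-) were remixed at 9 to 9 to 2 parts and 20000 cells per condition were loaded. Mouse strain, sex and age are not given in the sources used here. No treated group was repeated, so p-values between libraries rest on the spread between the PBS libraries alone, which may be technical. That spread is largely pooled over genes. The p-values between cell types rest on all 4 libraries.

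B cells carry a surface immunoglobulin with the signalling chains CD79A and CD79B, take up antigen through it and present peptides on MHC class II. Naive follicular B cells carry IgM and IgD and recirculate through lymphoid tissue, and activated ones can enter germinal centres or become antibody-secreting plasma cells. PD-1 is an inhibitory receptor best known on T cells. TL1A, encoded by Tnfsf15, is a TNF family ligand of the receptor DR3, encoded by Tnfrsf25.

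Cd79a was read in 97.8% to 100% of the members of a library, and Cd79b and Ms4a1 each in 72.2% to 85.5%. The rule asks for their sum, so it favours these reads but fixes none of them alone. The 12 B cell markers fixed for the check were all read in every library. Among them are the transcription factors Pax5 and Ebf1 and the adaptor Bank1. The 12 also include Cd79a, Cd79b and Ms4a1, so the rule itself fixes part of this result. Their summed level was 9610 to 12633 CPM (a gene's UMIs scaled to the same total of UMIs in each sum of cells). Ebf1 led in each library. Ebf1 and Bank1 were read in 99.2% and 96.2% of the 474 barcodes. T cell markers summed to 34.2 to 82.4 CPM, where the rule itself holds Cd3d, Cd3e and Cd3g at 0. Siglech, which the rule also limits, was at 0 in all 4 libraries, as were Klk1, Xcr1 and Clec9a, which it does not use. Other members of these lists were read. Conventional dendritic cell markers summed to 204 to 409 CPM, led by Ccr7, and plasmacytoid dendritic cell markers to 64.3 to 269 CPM, led by Bst2. Macrophage and monocyte markers summed to 673 to 989 CPM, led by Plac8 or Apoe, where the rule itself limits C1qa, C1qb, C1qc and Lyz2. Tumour and stroma markers summed to 282 to 840 CPM, led by Pecam1 or Dcn. The median B cell held 3965 UMIs in PBS 1, 4883 in PBS 2, 2911.5 in antiPD1 and 3879 in antiPD1TL1A. At the edge of the rule, 3, 3, 14 and 9 barcodes of PBS 1, PBS 2, antiPD1 and antiPD1TL1A sat at exactly 3 UMIs of the rule genes, and 6, 5, 5 and 8 were left out at 2. No B cell barcode sequence was shared between the B cells of different libraries, while 506 barcodes past the quality limits were shared between PBS 2 and antiPD1 and 451 between PBS 1 and antiPD1.

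A set of 15 barcodes met the rule and stood apart: 4 in PBS 1, 1 in PBS 2, 7 in antiPD1 and 3 in antiPD1TL1A. They held over 20000 UMIs, or at least as many UMIs of another cell type's markers as of the B cell markers; this limit was set after seeing the data. Among the lists of other cell types, mast cell markers held the most UMIs in 6 of them, macrophage and monocyte markers in 3, tumour and stroma markers in 3, dendritic cell markers in 2 and plasma cell markers in 1. Plac8 of the macrophage list and Ccr7 of the dendritic list are also in B cell gene lists used here. A PBS 1 barcode of 4443 UMIs, with macrophage markers as its leading other list, held 19 UMIs of the rule genes and 148 immunoglobulin UMIs. Whether such barcodes are B cells was not tested. An antiPD1 barcode of 51944 UMIs was set aside by its size alone, with 47 UMIs of the B cell markers against 19 of tumour and stroma. The plasma cell barcode, in antiPD1, held 5123 immunoglobulin UMIs, led by Igkc, Igha and Jchain. The largest, in antiPD1TL1A, held 75341 UMIs, of which 20 came from the 12 B cell markers. These barcodes gave 7.74% of all B cell UMIs in PBS 1, 3.63% in PBS 2, 17.5% in antiPD1 and 26.4% in antiPD1TL1A. Without them 459 B cells remained, and the mast cell markers summed to 0 to 2.61 CPM where they had summed to 2.30 to 366 CPM. Whether they are pairs of cells in 1 droplet was not tested. Counts of called genes between libraries are given with and without them. Genes of the marker lists, among them Ccr7, Plac8, Bst2, Jchain and Fcmr, can shift through the removal itself.

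**Figure D1:**
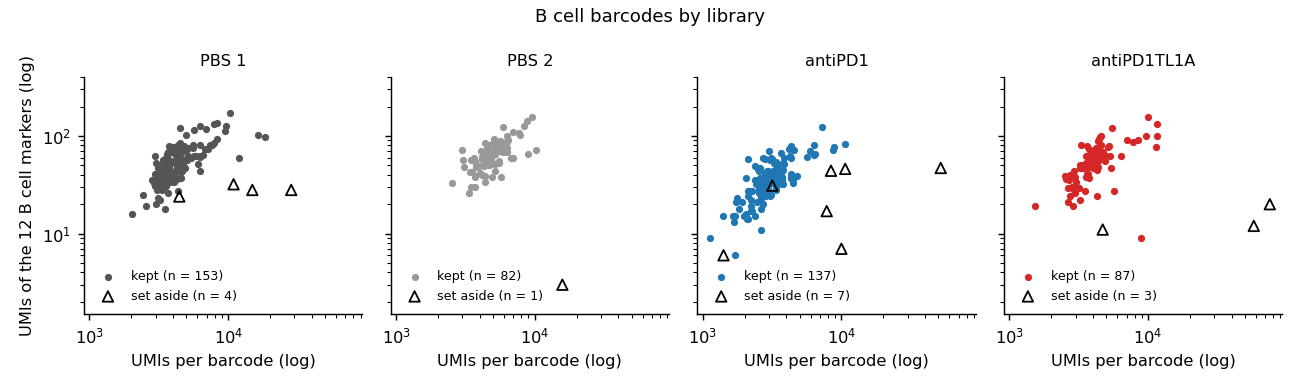
Each point is 1 of the 474 B cell barcodes, with its UMIs on the x axis (log scale) and the UMIs of the 12 B cell markers on the y axis (log scale), in 1 panel per library. The 15 open triangles are the barcodes set aside; 4 of them lie above 20000 UMIs.

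Immunoglobulin genes are not part of the rule. Among B cells with at least 3 UMIs of a leading heavy chain constant gene, Ighm led in 121 of 144 cells of PBS 1 (84.0%, 95% Clopper-Pearson interval 77.004% to 89.597%). The same share was 87.2% in PBS 2 (68 of 78), 91.5% in antiPD1 (108 of 118) and 81.2% in antiPD1TL1A (65 of 80). Ighd, the constant gene of IgD, led in 10.4%, 11.5%, 5.08% and 17.5% of the typed cells, in the same order. Where at least 10 UMIs of the leading gene were asked for, Ighd led in 0 of 46, 1 of 21, 0 of 23 and 1 of 16 cells (0%, 4.76%, 0% and 6.25%). Among switched classes, PBS 1 had 4 cells led by Ighg2c, 2 by Ighg2b, 1 by Ighg1 and 1 by Igha. PBS 2 had 1 led by Ighg3, and antiPD1TL1A 1 led by Ighg2c. In antiPD1 there were 2 led by Ighg2b, 1 by Ighg1 and 1 by Igha, the last being the plasma cell barcode set aside. Intervals here and below cover counting error only.

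Both Ighm and Ighd were read in 74.5%, 83.1%, 67.4% and 71.1% of all B cells of PBS 1, PBS 2, antiPD1 and antiPD1TL1A. Ighm was also read in 32.4%, 31.7%, 21.8% and 24.7% of T cells, at a median depth of 4959 to 8457 UMIs, so a single Ighm UMI marks little by itself. Ighd was read in 0.374% to 1.60% of T cells. In level, Ighm came to 1883, 1527, 1805 and 1804 CPM in the B cells left after the 15 barcodes were removed.

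Kappa was the leading light chain in 86.5% to 90.7% of typed cells and lambda in 12.8% of PBS 1 (20 of 156), 9.88% of PBS 2, 8.45% of antiPD1 and 8.14% of antiPD1TL1A. The intervals of the 4 lambda shares overlapped. Most kappa cells also held at least 1 lambda UMI: 92.6%, 83.3%, 66.1% and 89.7% in the 4 libraries, at a median of 3, 2, 1 and 3 UMIs. The same lambda genes were read in 0.0438% to 0.114% of T cells. Iglc1, Iglc2 and Iglc3 are near-identical copies, so how reads were split between them is uncertain.

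Few cells held a typed V gene. With at least 2 UMIs of a heavy chain V gene, 23, 17, 9 and 7 cells were typed, and these showed 23, 16, 8 and 7 different leading V genes. In no library did a heavy chain V gene lead in more than 2 cells. For kappa, 24, 14, 9 and 6 typed cells held 17, 11, 7 and 6 different V genes. The most frequent was Igkv12-44, in 4 cells of PBS 1.

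B cells were next set against T cells (13715 barcodes), conventional dendritic cells (cDC, 484) and plasmacytoid dendritic cells (pDC, 75) of the same libraries, as sums per library and type. Most genes of the B cell lists were higher in B cells than in T cells or cDC, and fewer were higher than in pDC. B cells carried more MHC class II than either kind of dendritic cell gathered here, and far fewer transcripts of dividing cells than T cells or cDC. The cDC rule can take in other cells, which limits every contrast with cDC below. Of 10454 genes 35.6% were called against T cells and 60.2% against cDC. Against T cells 1626 were higher in B cells (15.6%) and 2095 lower (20.0%). Against cDC 28.1% were higher and 32.1% lower, and against pDC 14.2% and 10.6% (edgeR's quasi-likelihood test with library as a block, Benjamini-Hochberg adjusted p under 0.05). The genes of the gating rules are left out of these counts. Without the 15 barcodes 4469, 6762 and 3431 genes were called against T cells, cDC and pDC, where 3721, 6294 and 2592 were called with them.

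Of 14 B lineage transcription factors, 12 were higher than in T cells, 12 than in cDC and 8 than in pDC. The median log2 difference of the list was 2.42, 4.36 and 2.45, where the median of all genes was -0.09, -0.11 and 0.07. Pax5, which holds B cells in their lineage, stood at 503 to 668 CPM in the B cells of the 4 libraries and at 0.0381 to 0.171 in T cells, a ratio of pooled levels of 5326. It was 2432 times its level in cDC. Ebf1, which acts with Pax5 early in the lineage, was 385 times its T cell level, and was read at 104 to 164 CPM in cDC. Against pDC 3 members were lower: Irf8 (log2 difference -1.81, SE 0.24, adjusted p by edgeR 3.4e-05), Bcl11a (-1.05) and Spib (-0.996), which are also factors of the pDC lineage. Tcf4, the factor best known for setting pDC identity, was lower in B cells than in pDC by -3.62 on the log2 scale (SE 0.16).

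Of 23 genes of B cell receptor and coreceptor signalling, 20 were higher than in T cells and 22 than in cDC. Against pDC 13 were higher and 4 lower, among them the adaptors Blnk and Dapp1 and the exchange factor Vav1. Bank1 stood at 2126 to 3465 CPM in B cells and 1.103 to 1.478 in T cells, a ratio of pooled levels of 2039, and was 2364 times its cDC level. Blnk, the adaptor that links the receptor to calcium signalling, was 917 times its T cell level but lower than in pDC (log2 difference -1.46, SE 0.24, adjusted p 0.00032). The surface protein gene Ly6d led the contrast with T cells, at 614 to 1006 CPM in B cells against 0.0214 to 0.228. In pDC it stood at 470 to 1564 CPM, which overlaps the B cells (log2 difference -0.02, SE 0.25, adjusted p 0.97).

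Cd22, an inhibitory coreceptor that binds sialic acid, lies on chromosome 7 at 30865402 to 30880342 (GRCm38, minus strand, GENCODE vM21). It was 153 times its T cell level and 108 times its cDC level. Its promoter is shown because, of 19 genes of the receptor list with a promoter in the RefSeq table, it is the only one holding TCCC, any 2 bases and GGGA, the core palindrome known for EBF factors, on either strand within 250 bases before the start. Of all 32851 promoters, 0.779% hold those letters. The sequence (RefSeq, GRCm38.p6, chr7:30879029-30879278, minus strand) is printed 5′ to 3′ up to the start site, with the match in capitals 49 bases before it. This RefSeq start differs from the GENCODE start at 30880342, and the printed bases lie inside the GENCODE gene.
Cd22: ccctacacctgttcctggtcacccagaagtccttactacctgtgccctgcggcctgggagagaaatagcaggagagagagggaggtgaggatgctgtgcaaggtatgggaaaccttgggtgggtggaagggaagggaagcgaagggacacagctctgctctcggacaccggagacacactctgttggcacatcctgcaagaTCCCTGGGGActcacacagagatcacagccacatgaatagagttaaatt

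**Figure D2:**
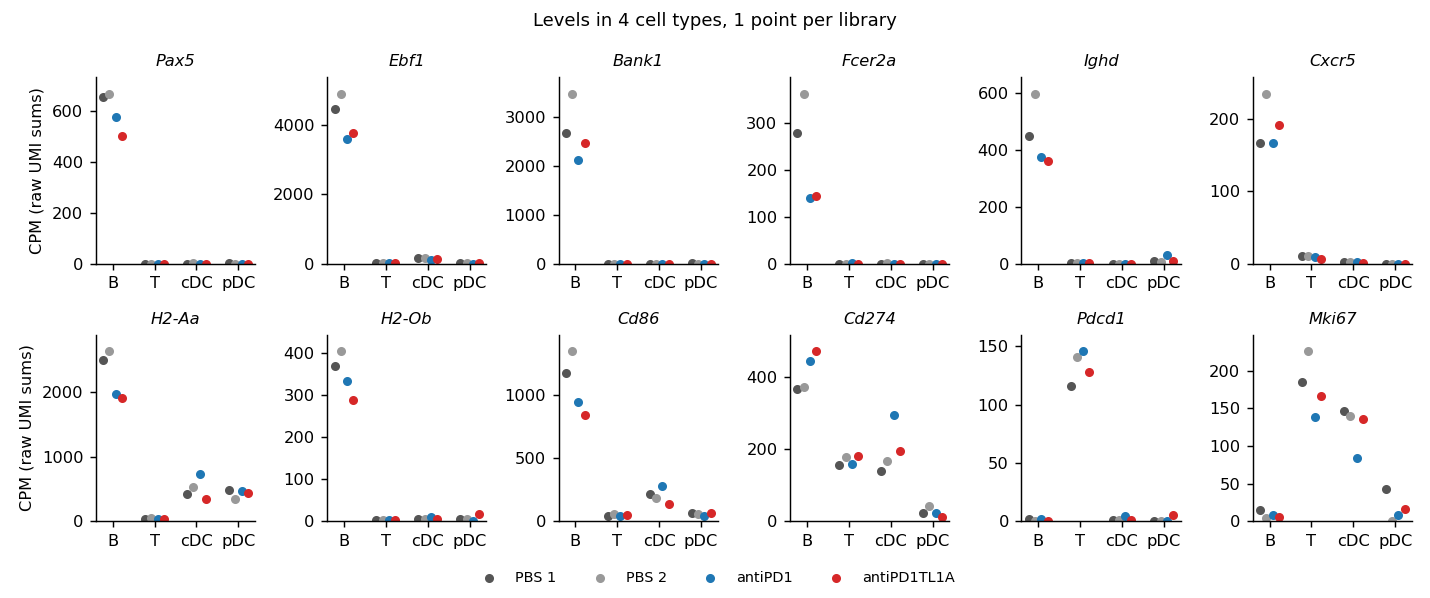
Level in CPM of 12 genes in B, T, cDC and pDC barcodes, with 1 point per library (all 474 B cells). Pax5, Bank1 and Fcer2a are near 0 outside B cells, Ebf1 is next highest in cDC at 104 to 164 CPM, Cd274 is higher in B cells than in T cells, and Pdcd1 and Mki67 are at or below 14.5 CPM in B cells.

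Of 13 genes of the MHC class II pathway, 12 were higher in B cells than in T cells, 11 than in cDC and 8 than in pDC, with a median log2 difference of 5.22, 2.24 and 2.30. H2-Aa, a class II alpha chain gene, stood at 2500, 2632, 1969 and 1914 CPM in the B cells of PBS 1, PBS 2, antiPD1 and antiPD1TL1A. In cDC it stood at 341 to 731 CPM, below every B cell library (log2 difference 2.35, SE 0.24, adjusted p by edgeR 1.1e-06). In T cells it stood at 23.7 to 50.4 CPM. H2-Aa was read in 53.3% of the cDC barcodes and 98.3% of B cells. The cDC rule used only Flt3 and Zbtb46 UMIs with exclusions, so it can take in other cells, and the share of such cells was not tested.

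H2-Ob, the beta chain of H2-O, which restrains the peptide-loading catalyst H2-DM, was 165 times its T cell level, 70.0 times its cDC level and 51.7 times its pDC level. H2-DMa, the alpha chain of that catalyst, was higher than in T cells and cDC but not called against pDC (log2 difference 0.05, SE 0.25, adjusted p 0.92). Ciita, the master activator of class II genes, was read at 51.8 to 110 CPM in B cells, 10.6 to 38.9 in cDC and 1.73 to 3.02 in T cells. Class II promoters are known for a reversed or forward CCAAT box bound by NF-Y, and 8 of the 10 pathway genes with a promoter in the table hold CCAAT on either strand within 250 bases before the start. Of all 32851 promoters, 33.8% do. A pair is shown for the box, in capitals: H2-Aa (chr17:34287824-34288073, minus strand, match 48 bases before the start) and the beta chain gene H2-Eb1 (chr17:34305617-34305866, plus strand, matches at 59 and 35).
H2-Aa: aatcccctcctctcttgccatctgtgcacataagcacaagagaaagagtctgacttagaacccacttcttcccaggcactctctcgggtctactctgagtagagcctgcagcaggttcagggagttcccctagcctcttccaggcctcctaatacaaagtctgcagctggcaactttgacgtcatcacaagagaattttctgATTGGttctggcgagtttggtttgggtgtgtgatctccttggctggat
H2-Eb1: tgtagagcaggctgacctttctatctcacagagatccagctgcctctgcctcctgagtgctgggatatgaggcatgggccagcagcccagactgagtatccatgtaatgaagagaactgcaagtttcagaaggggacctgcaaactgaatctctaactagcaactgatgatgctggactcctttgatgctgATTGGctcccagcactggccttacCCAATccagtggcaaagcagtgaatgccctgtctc

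MHC class I went the other way: 12 of 21 pathway genes were lower in B cells than in T cells and none was higher. Among them B2m, the light chain of class I, was at 0.571 times its T cell level. Costimulatory genes differed among themselves. Cd86 stood at 1170, 1343, 944 and 838 CPM in B cells, above every cDC library (133 to 277 CPM; log2 difference 2.58, SE 0.21, adjusted p 7.1e-08). Cd80, the other B7 ligand, was lower than in cDC (log2 difference -1.42, SE 0.53, adjusted p 0.040) and was not called against T cells (0.14, adjusted p 0.88).

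Follicular and naive B cell genes were higher in 15 of 16 cases against T cells and against cDC, and in 14 of 16 against pDC, with 1 lower. Fcer2a, the low-affinity IgE receptor CD23 of follicular B cells, was 1234 times its T cell level. Cxcr5, the receptor that guides cells to B cell follicles, was 20.9 times its T cell level and 115 times its cDC level. Ccr7, which guides cells to lymph nodes, was higher than in T cells but not called against cDC (log2 difference 0.31, SE 0.37, adjusted p 0.49). Tnfrsf13c, the receptor of the survival factor BAFF, stood at 32.6 to 55.3 CPM in B cells, 1.22 to 1.59 in T cells and 4.31 to 29.9 in pDC.

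Cell cycle genes were lower in 20 of 21 cases than in T cells and in 17 than in cDC, with 1, Cenpa, higher than in cDC. Against pDC none was called in the edgeR fit. Mki67, a proliferation marker, was read in 11 of 157 B cells of PBS 1, 2 of 83 in PBS 2, 3 of 144 in antiPD1 and 2 of 90 in antiPD1TL1A. T cells held it in 17.0% to 24.9% of barcodes. Thinned to 1000 UMIs per cell, the shares were 0% to 1.91% in B cells and 5.79% to 7.58% in T cells.

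Jchain, which joins IgM and IgA polymers, was read in 1 cell of PBS 1 and in the plasma cell barcode of antiPD1. Bcl6, the germinal centre repressor, was read in 33.1%, 48.2%, 36.1% and 56.7% of B cells, and in 15.993% to 24.4% of T cells.

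The receptor of TL1A was not read in B cells: Tnfrsf25 had 0 UMIs in 474 barcodes and 308 in T cells, in 2.11% of them. Tnfsf15 was also at 0 in B cells. Pdcd1, which encodes PD-1, had 2 UMIs in B cells, in 0.422% of them, against 39.2% of T cells. Cd274, the gene of PD-L1 (a ligand of PD-1), was read in 59.5% of B cells, at 2.42 times the T cell level and 17.0 times the pDC level. The interferon-gamma receptor chain Ifngr1 stood at 41.2 to 110 CPM in B cells and 550 to 719 in T cells. Its partner Ifngr2 stood at 48.0 to 76.4 CPM in B cells and 10.2 to 17.4 in T cells.

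The share of B cells among barcodes with a Ptprc (CD45) UMI and no Cd3 UMI was highest in PBS 1 and lowest in the combination library. It was 6.57% in PBS 1 (140 of 2130, interval 5.56% to 7.71%) and 4.52% in PBS 2 (81 of 1793, 3.604% to 5.584%). It was 3.66% in antiPD1 (128 of 3497, 3.06% to 4.34%) and 2.76% in antiPD1TL1A (87 of 3148, 2.22% to 3.40%). This denominator was used because the remix fixes the proportion of the sorted fractions. The PBS libraries' own intervals touched only at their ends, and the antiPD1 interval overlapped that of PBS 2. On the log2 scale antiPD1 lay -0.60 from the PBS mean, -0.30 without PBS replicate 1 and -0.84 without PBS replicate 2. The combination lay -1.005 from it, -0.71 and -1.25 without each in turn. With every barcode thinned to 1000 UMIs the shares were 3.61%, 3.36%, 2.84% and 2.06%. The rule differed there: at least 1 UMI of Cd79a, Cd79b and Ms4a1 together and no UMI of any excluded gene. The thinned shares are thus not the same share at equal depth. No test was run on the shares, since each treated group is 1 library.

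**Figure D3:**
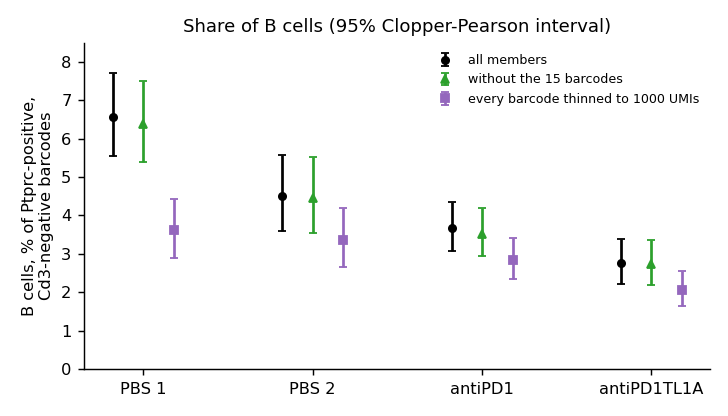
Share of B cells in percent of barcodes with a Ptprc UMI and no Cd3 UMI, for each library, with 95% Clopper-Pearson intervals of counting error. Black circles are all members and green triangles leave out the 15 barcodes. Purple squares are thinned to 1000 UMIs, with a changed rule of at least 1 UMI of the B cell genes and no UMI of any excluded gene. The order PBS 1, PBS 2, antiPD1, antiPD1TL1A from high to low is the same in all 3.

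The libraries were then compared within B cells, first antiPD1 with PBS. With all members 82 of 7411 genes were called (1.11%), 72 higher (0.972%) and 10 lower (0.135%; edgeR's quasi-likelihood test, adjusted p under 0.05). The genes that rose most were mostly read in the 15 barcodes. For the 72 higher genes a median of 85.1% of the antiPD1 UMIs came from the 7 barcodes set aside there, and 64 genes had over 50% from them. Igkc, the kappa constant gene, had 3920 of its 6047 antiPD1 UMIs in them, and its log2 difference of 1.497 (SE 0.23, adjusted p 3.5e-05) became 0.23 without them (adjusted p 0.89). Jchain had all 235 of its UMIs in 1 barcode. Ccl7, a chemokine gene, had 94 of its 95.

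Once the 15 barcodes were left out, 7 of 6404 genes were higher in antiPD1 (0.109%) and 3 lower (0.0468%). DESeq2 called 1 of the same table, Gm42418. The genes that differed with the 15 barcodes left out are described next, with the T cells of the same libraries beside them because a shift of a whole library would show in both.

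Gm42418, annotated as a lincRNA on chromosome 17 at 39846958 to 39848788 and known to overlap ribosomal RNA sequence, stood at 14137, 14721 and 14204 CPM in PBS 1, PBS 2 and antiPD1TL1A and at 25275 in antiPD1. Its log2 difference from PBS was 0.89 (SE 0.16, adjusted p by edgeR 6.8e-05). In T cells it stood at 12648, 12717, 11433 and 19080 CPM in the same order, so both cell types were highest in antiPD1. Lars2, AY036118 and Gm15564 followed this pattern. Lars2, a mitochondrial leucyl-tRNA synthetase gene, stood at 331, 353, 645 and 258 CPM in PBS 1, PBS 2, antiPD1 and antiPD1TL1A (log2 difference 0.9996, adjusted p 0.0083). AY036118 differed by 0.81 and Gm15564 by 1.16. All 4 were also highest in antiPD1 among T cells. With all members these 4 and Fhit were not called (adjusted p 0.20 for Gm42418, 0.11 for Lars2, 0.35 for AY036118, 0.16 for Gm15564 and 0.062 for Fhit). What sets antiPD1 apart in both cell types was not tested.

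mt-Nd6, a mitochondrial gene for a subunit of respiratory complex I, was lowest in antiPD1, at 107 CPM against 254 and 248 in PBS and 227 in the combination (log2 difference -1.15, SE 0.28, adjusted p 0.037). T cells were also lowest there, at 51.3 CPM against 94.9 to 116. Impact, an inhibitor of the stress kinase GCN2, stood at 134 and 81.0 CPM in PBS, 25.0 in antiPD1 and 143 in the combination (log2 difference -2.06, SE 0.42, adjusted p 0.0038). It was read in 11 of 137 cells of antiPD1, 54 of 153 in PBS 1 and 27 of 82 in PBS 2. In T cells Impact stood at 50.9, 52.4, 37.0 and 50.5 CPM. Dusp1, a phosphatase of MAP kinases that is also induced by tissue handling, stood at 80.0, 112, 22.7 and 70.4 CPM in B cells (log2 difference -1.95, SE 0.45, adjusted p 0.015) and at 111 to 131 in T cells. Of the 47 Dusp1 UMIs of PBS 2, 21 came from 1 barcode.

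Fhit, Chmp2a and Lgals1 were the other higher genes of antiPD1. Fhit, a tumour suppressor gene at a fragile site, stood at 94.2, 136, 245 and 83.4 CPM, with 30 of its antiPD1 UMIs in 1 barcode. Chmp2a, of the membrane-cutting ESCRT machinery, differed by 1.30 (SE 0.32, adjusted p 0.035). Lgals1, galectin-1, stood at 92.8, 47.7, 168 and 112 CPM after 338 of its 412 antiPD1 UMIs had been removed with the 15 barcodes (log2 difference 1.27, adjusted p 0.021, and 1.90 or 0.91 without PBS replicate 1 or 2). T cells held it at 1203 to 2180 CPM, highest in antiPD1 as well, and their part in the B cell values was not tested.

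In the combination library 285 of 7411 genes were called against PBS with all members (3.85%), 241 higher (3.25%) and 44 lower (0.594%). For the 241, a median of 90.9% of the UMIs came from the 3 barcodes set aside there, and 225 had over 50% from them. Cryab, a small heat shock protein gene, had 51 UMIs and Nos2, inducible nitric oxide synthase, had 41, all in those 3 barcodes. Cxcl10, a chemokine induced by interferons, had 88 of its 95 UMIs there. Each of the 3 barcodes held exactly 3 UMIs of the rule genes, and with the threshold at 5 the fit called 5 genes.

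Without the 15 barcodes 5 of 6404 genes were higher in the combination (0.0781%) and 2 lower (0.0312%). DESeq2 called none of them in that table, with 38 genes under an unadjusted p of 0.05, and edgeR had 393 under it. Parp14, an ADP-ribosyltransferase induced by interferon, on chromosome 16 at 35832874 to 35871544, stood at 55.7 and 66.7 CPM in PBS 1 and PBS 2, 120 in antiPD1 and 185 in the combination. Its log2 difference was 1.58 in the combination (SE 0.31, adjusted p by edgeR 0.0022) and 1.08 in antiPD1 (SE 0.33, adjusted p 0.18). It was read in 44.8% of the combination's B cells and in 19.6%, 20.7% and 24.8% of those of PBS 1, PBS 2 and antiPD1. In T cells Parp14 stood at 134 to 167 CPM in all 4 libraries, with the combination inside the range of the others.

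Zfp36, which marks inflammatory messenger RNAs for decay and is also a handling stress gene, was higher in the combination. It stood at 128, 145, 102 and 313 CPM (log2 difference 1.17, SE 0.26, adjusted p 0.0080) and at 84.1, 77.3, 53.6 and 124 in T cells. Pfn1, profilin, stood at 318, 203, 152 and 550 CPM in B cells (1.02, SE 0.23, adjusted p 0.0080; 1.41 or 0.75 without PBS replicate 1 or 2) and at 747, 596, 377 and 1225 in T cells. Both genes were highest in the combination and lowest in antiPD1 in both cell types. Cdk8, a kinase of the Mediator complex, went the other way: 720, 879, 1038 and 381 CPM in B cells (-1.10, SE 0.23, adjusted p 0.0041) and 645, 725, 950 and 367 in T cells.

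The other calls of the combination were of genes read in 3 to 22 cells of a library. Ikzf2, the transcription factor Helios, had 24 of its 26 combination UMIs in 1 barcode, and Csf1, the macrophage growth factor, had 10 of 30 in 1. Helios stood at 816 to 1024 CPM in T cells. Pde7b, a phosphodiesterase gene, was lower (log2 difference -2.03, SE 0.49, adjusted p 0.036), with 75.7, 95.3, 54.5 and 20.9 CPM. These came from 53, 40, 24 and 8 UMIs in 22, 12, 11 and 7 cells, with 15 of the 40 in PBS 2 in 1 barcode.

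**Figure D4:**
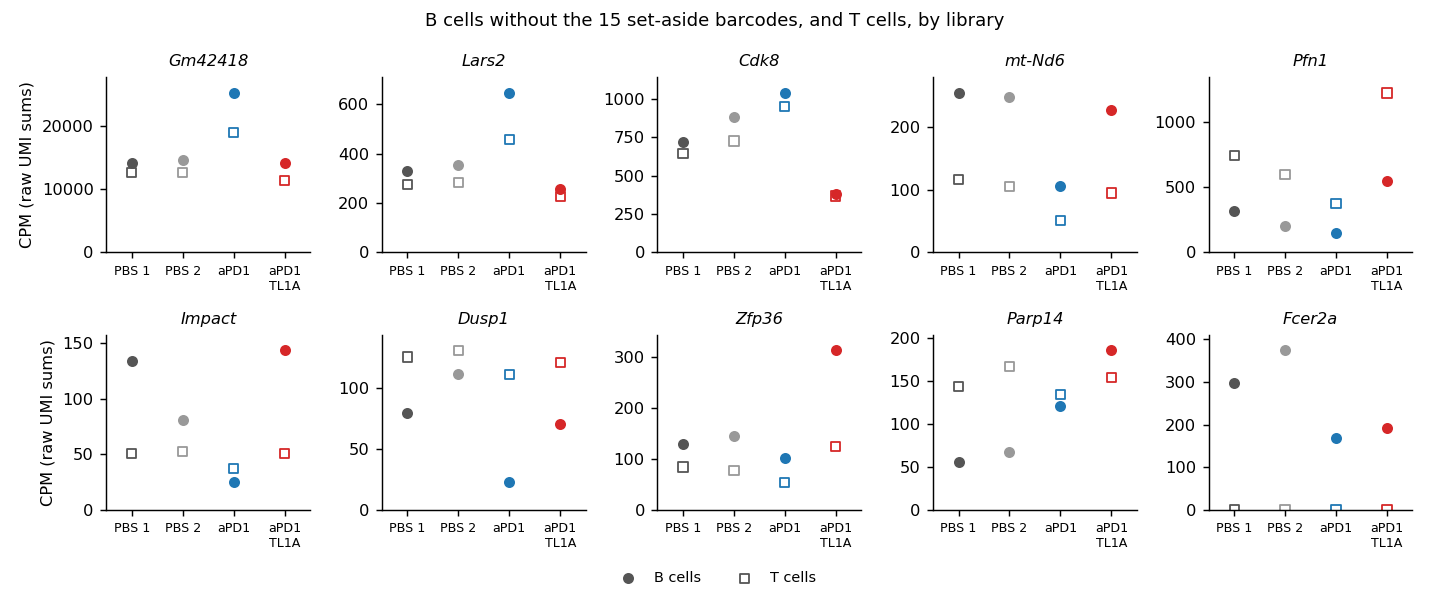
Level in CPM by library for 10 genes: filled circles are B cells without the 15 barcodes and open squares are T cells of the same library. For Gm42418, Lars2, Cdk8, mt-Nd6 and Pfn1 circles and squares share their highest or lowest library, while Parp14 climbs in the circles of the treated libraries and its squares stay between 134 and 167 CPM.

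Between antiPD1TL1A and antiPD1, which compares 2 libraries and not conditions, 50 of 7411 genes were called with all members (0.675%), 35 higher (0.472%) and 15 lower (0.202%). In the 459 remaining cells 4 of 6404 were higher (0.0625%) and 14 lower (0.219%). The 4 were Impact, Pfn1, Zfp36 and Iglc2. Iglc2, a lambda constant gene, stood at 655, 341, 282 and 675 CPM in PBS 1, PBS 2, antiPD1 and antiPD1TL1A (log2 difference 1.15, SE 0.27, adjusted p by edgeR 0.011), so the PBS libraries spread almost as far as the treated ones.

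Fcer2a was the follicular gene called lower in both treated libraries with all members. It lies on chromosome 8 at 3681737 to 3694175 and had 211, 157, 75 and 75 UMIs. The log2 difference was -1.10 in antiPD1 (SE 0.28, adjusted p by edgeR 0.034) and -1.15 in the combination (SE 0.28, adjusted p 0.0080). Without the 15 barcodes the levels were 297 and 374 CPM in PBS and 168 and 193 in the treated libraries, which do not overlap. The differences were then -0.90 and -0.82 and were not called (adjusted p 0.14 and 0.22). The share of B cells with an Fcer2a UMI was 59.2%, 71.1%, 34.7% and 44.4%, and 24.2%, 34.9%, 15.97% and 17.8% at 1000 UMIs per cell, against 0.114% to 0.219% of T cells unthinned.

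Of 16 follicular and naive genes, Fcer2a, Cr2, Ccr7 and Fcmr were called lower in the combination with all members and none was without the 15 barcodes. The list's median log2 difference was then -0.20 in antiPD1 and -0.21 in the combination, where all genes had -0.01 and -0.02. Cr2, a complement receptor, had 72, 62, 27 and 26 UMIs, none of them in the 15 barcodes (-1.22, adjusted p 0.042 with all members; -0.89, adjusted p 0.52 without). Ccr7 had 32 and 34 UMIs in the barcodes set aside in PBS 1 and PBS 2. Its difference went from -1.05 (adjusted p by edgeR 0.017) to -0.41 (adjusted p 0.93). Ccr7 is among the dendritic cell markers by which barcodes were set aside, and Fcmr among the B cell markers. The change in these genes is thus partly built into that rule.

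Activation and antigen presentation were read in every library. H2-Aa without the 15 barcodes stood at 2631, 2573, 2323 and 2586 CPM and H2-Ab1, the beta chain, at 2176, 2068, 2257 and 2107. None of the 12 tested class II genes was called in any comparison of libraries, with or without the 15 barcodes. The list's median log2 difference from PBS was -0.12 in antiPD1 and -0.45 in the combination with all members, with 3 and 1 of the 12 above 0, and 0.10 and -0.07 without the 15, with 8 and 3 above 0. Cd86 stood at 1235, 1370, 1124 and 1119 CPM and Cd83, an activation marker that stabilises class II, at 488, 615, 549 and 600. Cd69, an early activation marker, stood at 363, 641, 565 and 785 CPM, and the PBS values span most of that range (log2 difference 0.63 in the combination, SE 0.21, adjusted p 0.31). T cells stood at 240, 262, 200 and 211 CPM of Cd69. All 23 receptor signalling genes were tested. With all members the medians were -0.09 and -0.32, with 11 and 2 of 23 above 0 and Cr2 called lower in the combination. Leaving out the 15 gave medians of -0.02 and 0.03, with 10 and 12 above 0 and 0 called.

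Genes of the interferon-gamma response were mostly positive in both treated libraries, and few were called. The count filter asked for enough UMIs in at least 1 library, so a gene with few UMIs can enter through a treated library alone. This can tilt the tallies and medians of the interferon lists against PBS upward, and how far was not tested. Interferon-gamma acts through Ifngr1 and Ifngr2 and the kinases Jak1 and Jak2, and switches on Irf1, guanylate-binding proteins and immunity-related GTPases. With all members 20 of the 24 listed genes were tested: 18 were above 0 in antiPD1 with a median log2 difference of 0.74, and 1, Gbp2, was called. In the combination 20 of 20 were above 0 with a median of 1.39, and Cxcl10, Gbp2, Igtp, Parp14 and Socs1 were called. Gbp2 had 75 of its 84 combination UMIs in the 3 barcodes set aside, and Igtp 18 of 33.

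With the 15 barcodes left out 17 of the 24 were tested. In antiPD1 16 lay above 0 with a median of 0.96 and none was called by edgeR, which had 420 genes of the whole table under an unadjusted p of 0.05. In the combination 16 lay above 0 with a median of 0.83 and Parp14 was called. All genes tested had medians of -0.01 and -0.02, and 49.4% and 48.4% of them lay above 0. These comparisons share the PBS libraries, and the direction of the list in one says nothing separate about the other. Against antiPD1 the combination had 11 of 17 above 0, with a median of 0.11.

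Irf1, a transcription factor at the head of the response, stood at 338, 410, 579 and 566 CPM in PBS 1, PBS 2, antiPD1 and antiPD1TL1A, and at 327, 339, 304 and 308 in T cells. Both treated B cell values lay above both PBS values (log2 difference 0.72, SE 0.22, adjusted p by edgeR 0.18 in antiPD1; 0.57, SE 0.22, adjusted p 0.49 in the combination). Both treated values of Cd274 also lay above both PBS values, at 375, 322, 518 and 605 CPM (0.65, adjusted p 0.34; 0.75, adjusted p 0.15). Socs1, a feedback inhibitor of the Jak kinases, stood at 17.1, 19.1, 40.9 and 73.0 CPM from 12, 8, 18 and 28 UMIs (combination 1.98, SE 0.51, adjusted p 0.077).

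Irgm1, an immunity-related GTPase, stood at 52.8, 90.5, 118 and 130 CPM, and the adhesion gene Icam1 at 20.0, 21.4, 43.1 and 67.8. Gbp5, a guanylate-binding protein gene, had 4, 3, 7 and 16 UMIs. In each of these the treated libraries lay above both PBS libraries, and none passed the test. Of the 34 genes of the type I interferon list, 24 were tested with all members. In antiPD1 10 of them lay above 0, with a median of -0.10 and none called, and in the combination 16, with a median of 0.62 and Bst2 and Stat2 called higher. With the 15 barcodes left out 17 were tested, of which 7 and 12 lay above 0, with medians of -0.08 and 0.08 and none called.

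Promoters of this list are shown because its members were read together. The core of the interferon-stimulated response element, searched as GAAA, any 2 bases and GAAA, lies within 250 bases before the start, on either strand, in 11 of 16 list genes with a promoter in the table and in 2.98% of all 32851 promoters. The type I list has it in 14 of 26. A match is a run of letters and not a measured binding site. For Irgm1 and Gbp5 the RefSeq start differs from the GENCODE start, and the bases shown lie inside the GENCODE gene. Capitals mark the matches in Socs1 (chr16:10785537-10785786, minus strand, overlapping matches 83 and 77 bases before the start), Irgm1 (chr11:48871421-48871670, minus strand, overlapping matches at 30 and 24) and Gbp5 (chr3:142496684-142496933, plus strand, 1 match at 165, read here as its reverse complement).
Socs1: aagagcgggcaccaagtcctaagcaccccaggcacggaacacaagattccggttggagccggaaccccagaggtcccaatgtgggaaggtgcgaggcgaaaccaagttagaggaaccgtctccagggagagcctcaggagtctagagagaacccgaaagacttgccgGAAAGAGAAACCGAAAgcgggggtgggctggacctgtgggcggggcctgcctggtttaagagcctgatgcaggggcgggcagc
Irgm1: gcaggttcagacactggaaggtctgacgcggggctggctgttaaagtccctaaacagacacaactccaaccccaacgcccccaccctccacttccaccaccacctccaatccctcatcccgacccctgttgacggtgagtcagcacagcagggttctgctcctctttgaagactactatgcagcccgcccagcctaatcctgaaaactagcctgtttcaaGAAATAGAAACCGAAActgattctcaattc
Gbp5: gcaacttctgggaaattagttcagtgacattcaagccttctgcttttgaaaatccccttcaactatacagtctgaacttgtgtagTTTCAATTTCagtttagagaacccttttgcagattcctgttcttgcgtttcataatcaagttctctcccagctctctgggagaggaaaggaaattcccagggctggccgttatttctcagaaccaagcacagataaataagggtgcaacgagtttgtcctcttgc

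**Figure D5:**
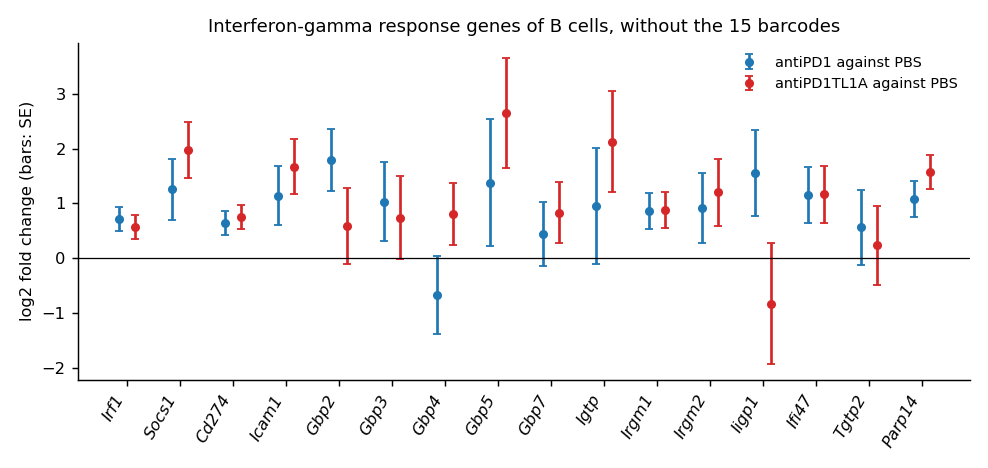
Log2 difference from PBS of 16 of the 17 tested interferon-gamma response genes in B cells without the 15 barcodes, with SE bars, in antiPD1 (blue) and antiPD1TL1A (red). In each library 15 of 16 points lie above 0, and Parp14 in antiPD1TL1A is the point with an adjusted p under 0.05. The count filter can let in genes through a treated library alone, which can tilt the points upward.

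The response of B cells was last set against that of T cells in the same libraries, as the difference between the changes from PBS. A shift common to both types of a library thus cancels. This fit pooled its spread over the sums of both types. The biological coefficient of variation that it estimated was 10.7%, against 14.5% in the fit of B cells alone, both without the 15 barcodes. Its p-values can thus understate the spread of B cells. With all members 0.6% of 14157 genes differed for antiPD1, 76 upward in B cells (0.537%) and 9 downward (0.0636%). For the combination 2.37% differed, 237 upward (1.67%) and 98 downward (0.692%). Without the 15 barcodes 5 of 13987 genes differed in antiPD1 (0.0357%), all upward, and 8 in the combination (0.0572%), 7 of them upward (0.05%) and 1 downward (0.00715%). Parp14 was among the 8, with a difference of 1.59 on the log2 scale (SE 0.33, adjusted p by edgeR 0.0040). Cd69 was another, at 0.92 (SE 0.19, adjusted p by edgeR 0.0044), and was not called with all members (0.50, adjusted p 0.53). In the fit of B cells alone Cd69 was not called in the combination against PBS. In antiPD1 its difference was 0.52 and was not called. Cd74, the class II invariant chain, was called lower in the combination with all members, and no class II gene was called without the 15. Of the 24 interferon-gamma genes 21 lay above 0 in antiPD1, with a median of 0.81, and 20 in the combination, with a median of 0.72. All genes tested had medians of -0.02 and -0.07. No gene of the list was called in antiPD1 and Parp14 was called in the combination. Gm42418, Lars2, Cdk8 and Pfn1 were not called in this comparison in either library.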

How the data were processed

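The deposited values are UMI counts per gene and barcode in 4 matrices of 32285 genes; the authors made them with Cell Ranger against mm10, version 7.1.0 per the file headers, although the submitters' processing notes name 3.0.2. The sources do not state if introns were included. UMIs of the members were summed per library (435455 to 759188) and tested with edgeR 4.0.16 (quasi-likelihood, robust, TMM, filterByExpr minimum 10) in R 4.3.3 with limma 3.58.1. Comparisons of libraries had 1 residual degree of freedom, from the PBS pair. In them each gene's variance was drawn toward a trend over all genes, at a median of 49.33 prior degrees of freedom with all members. Without the 15 barcodes this median was infinite, so the median gene's own spread had no weight. In the fit of the response of B against T cells it was infinite with and without the 15 barcodes. T cells were barcodes with at least 3 Cd3 UMIs, cDC with at least 2 of Flt3 and Zbtb46, pDC with at least 3 of Siglech, with exclusions. DESeq2 1.42.0 was the alternative test. Doublets were scored with Scrublet in scanpy 1.11.5 and removed only in an alternative, at 0.8% per 1000 barcodes. The fit between libraries was tested on simulated data with changes set in antiPD1TL1A against PBS. It called 25 of 100 genes changed 2-fold and 91 of 100 changed 4-fold, with 5 false calls among 6938 genes. A 2-fold change between libraries can thus go uncalled. The simulation drew the changed genes from those with higher levels in PBS, gave all genes the same spread and held no outlying barcodes. It does not cover genes with few UMIs or calls that rest on single barcodes. The members and the 17 gene lists were chosen with earlier results of these data known. Named genes were the 10 largest changes in each direction among those called, up to 4 called members per list, and a fixed set; between cell types, the 10 largest increases with at least 100 CPM in B cells of every library, and described genes of the lists. Genes called without the 15 barcodes were named after their values were seen.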

Additional observations from a re-analysis of the deposited data

Results flagged for a closer look

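In 11 cases the change from PBS in B cells differed from the change in T cells by edgeR's interaction test both with all members and without the 15 barcodes; values are differences on the log2 scale without them. That test pooled its spread over B and T cell sums, which limits its p-values. In antiPD1 the difference was 1.842 for Fhit (adjusted p by edgeR 9.4e-05), 1.292 for Pkib (0.021) and 1.31 for Taf4b (0.036). Pkib, an inhibitor of protein kinase A, stood at 256, 415, 534 and 584 CPM in the B cells of PBS 1, PBS 2, antiPD1 and antiPD1TL1A. Taf4b, a TFIID subunit gene, stood at 119, 136, 207 and 253 CPM in B cells and 131, 126, 83.0 and 88.4 in T cells. Eda gave 5.171 from 0, 3, 18 and 0 UMIs, and Cenpf 11.36 from 0, 0, 8 and 1 UMIs; both sizes depend on the prior count and are no bound.

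In antiPD1TL1A the difference was 1.439 for Pkib (adjusted p by edgeR 0.00077), 1.515 for Taf4b (0.00096) and 1.588 for Parp14 (0.0040). Jaml, a junction adhesion gene, gave 3.96 from 1, 2, 9 and 17 UMIs, 8 of the 17 in 1 barcode. Ikzf2 gave 3.175 and rests on 1 barcode with 24 UMIs. Tmem163 gave -0.9359: its B cells stood at 543, 488, 579 and 443 CPM and its T cells at 216, 320, 358 and 416. Without the 15 barcodes alone, Cd69 (0.92, adjusted p 0.0044) and Pde4b (0.85, adjusted p 0.028) were called in antiPD1TL1A as well.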

How the results depend on the processing

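Leaving out the 15 barcodes, chosen after seeing the data, took the genes called from 82 to 10 in antiPD1 against PBS, from 285 to 7 in antiPD1TL1A against PBS and from 50 to 18 between the treated libraries. It took the response against T cells from 85 to 5 and from 335 to 8. In the same order DESeq2 called 5, 36 and 5 of the 368, 6836 and 512 genes it gave an adjusted p, 4 of 14157 and 28 of 10312 for the response, and 1, 0 and 13 of 6404, 6404 and 318 without the 15 barcodes. Drawing 1000 UMIs per barcode, also added after seeing the data, left 9, 1 and 14. A threshold of 5 rule UMIs left 5 in antiPD1TL1A against PBS and 11 in its response, and turned Dcn to -0.9509 against PBS (adjusted p by edgeR 0.9994) and -3.925 against antiPD1 (0.4229); the cause was not tested. The other 60 recomputed counts and share ratios were labelled as kept. For counts this means within 1.5 times. For share ratios it means a move smaller than the standard deviation of the 2 PBS shares on the log2 scale, which is a wide limit. Without PBS replicate 1 or 2 the calls were 2630 to 2900 against T cells, 4813 to 5333 against cDC and 1879 to 1931 against pDC, and the share ratios -0.8445 to -0.3036 and -1.2499 to -0.709. That leaves no residual degree of freedom for library comparisons, so only folds were computed there. No paired analysis was possible because the replicate numbers do not pair PBS with treated libraries. Cell types were fitted with library as a block; with no replicate block 3705, 6341 and 2593 genes were called.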
